A study of Drosophila melanogaster with 23 samples.

Results

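RpLP1 encodes an acidic phosphoprotein of the ribosomal stalk, and 1 of its probes, A_09_P150000, was followed through a shift of Drosophila S2R+ cells to 14 °C. The probe was taken by its name, 1 of 32162 distinct probes on the array, and had been chosen by its log2 change at 72 h against 25 °C. Its differences between 25 °C and 14 °C are therefore given as a description, with no test. S2R+ is an established cell line derived from Drosophila embryos, with features of hemocytes, the blood cells of the fly. Total RNA was hybridised to 23 single-colour Agilent arrays to follow the transcriptome after the temperature downshift. All cells were kept for 36 h at 25 °C beforehand. The warm groups were cells taken at 0 h, with 3 arrays, and cells left for 12 h more at 25 °C (t12_25), also with 3. Cells held at 14 °C were sampled after 4 h with 5 arrays, after 12 h with 3, after 24 h with 5 and after 72 h with 4. Both warm groups together formed the 25 °C baseline of 6 arrays, which is how the study treated them. By earlier cell counts of the study, t12_25 cells and cells held for 72 h at 14 °C had matching densities. All groups came from this 1 cell line in culture, and no further treatment or genotype is given in the labels.

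The stalk is a flexible arm on the large ribosomal subunit. In eukaryotes it is built from RpLP0, which anchors it to ribosomal RNA beside RpL12, and from dimers of RpLP1 and RpLP2. It recruits the GTPase translation factors and stimulates their GTP hydrolysis. Genes for ribosomal proteins are among the most abundantly transcribed in growing cells, and their products are needed in matched amounts.

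Per array, 46.8% to 58.1% of probes were well above background, and no gene spot was saturated. Tested probes correlated with a median r of 0.987 between arrays of 1 group and 0.980 between arrays of different groups. The labelled cell type was checked with markers that a source paired with a probe. Probes for the hemocyte markers srp, ush and vkg were well above background on all 23 arrays. Those for twi (muscle) and nos (germ line) were so on 0 arrays, and the highest count among probes for vas (germ line) and brp (neuron) was 5. The arrays lay on 7 slides, and slide moved the values of some ribosome probes strongly, as given beside them. The quantification software marked 6 arrays for evaluation, namely 4 h replicate 5, 12 h replicates 2 and 3, and 72 h replicates 1, 2 and 3.

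A_09_P150000 was printed as 1 spot per array and is assigned in the files to transcript FBtr0331932. The other RpLP1 probe, A_09_P043441, had 2 spots per array and is assigned to transcript FBtr0078056. RefSeq (Release 6 assembly) lists 2 transcripts of RpLP1. A figure legend of the study names RpLP1 as a case where 1 probe detects only the annotated transcript with the longest 3′ untranslated region. That probe is shown there with a strongly higher signal in the cold, in a separate array experiment on S2R+ cells. The study reports that in some genes only the transcripts with the farthest 3′ end were higher in the cold. Its later sequencing of 3′ ends found no general shift towards far ends. Whether this bears on the values below was not tested. The legend gives no probe name, and coordinates of the probes were not used here. The spot of A_09_P150000 was well above background on all 23 arrays, so each value below is a measured signal and not a bound.

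Before normalization, A_09_P150000 had median signals of 164, 103 and 141 on the 0 h arrays and of 153, 154 and 174 on the t12_25 arrays, in scanner units. Cells at 14 °C gave 361, 391.5, 401, 235.5 and 358 after 4 h, 909, 604.5 and 706 after 12 h, 1112, 927, 1072, 907 and 1048 after 24 h, and 723, 871, 898.5 and 1008 after 72 h. Every array from 14 °C was thus brighter than every array from 25 °C even before any correction was made. The local background at these spots was far lower, between 15 and 33.

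After normalization, the log2 intensities of A_09_P150000 were 7.62, 6.96 and 7.33 at 0 h and 7.73, 7.58 and 7.45 at t12_25. They were 8.93, 8.86, 8.72, 8.12 and 8.22 at 4 h, and 9.99, 9.61 and 9.18 at 12 h. They were 10.36, 10.20, 10.37, 9.97 and 10.04 at 24 h and 9.61, 9.73, 9.85 and 9.87 at 72 h. The signal thus stood above both warm groups by 4 h, was highest at 24 h and remained high at 72 h. The 72 h mean of 9.77 ± 0.12 (SD, n = 4) was set against a baseline mean of 7.45 ± 0.28 (SD, n = 6), a log2 difference of 2.32 or 4.99-fold. These values are from bulk RNA, in which more signal per cell and a larger share of cells with the transcript cannot be told apart.

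Against baseline, A_09_P150000 was 2.18-fold brighter after 4 h (log2 change 1.12), 4.42-fold after 12 h (2.14) and 6.68-fold after 24 h (2.74), and the log2 change of 2.32 after 72 h was below that peak. Expressed as a share of the 24 h value, 40.9% of the change was present at 4 h, 78.3% at 12 h and 84.7% at 72 h. The steps between successive times were 1.12, 1.02, 0.60 and -0.42, so that most of the difference had built up by 12 h and the last interval ran downwards. Among 15503 tested probes, this probe held rank 72 after 4 h, rank 10 after 12 h, rank 4 after 24 h and rank 22 after 72 h, counted from the highest log2 change.

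Ordered by their means, the groups ran 0 h, t12_25, 4 h, 12 h, 72 h and 24 h from low to high. The lowest 24 h array lay 0.091 above the highest 72 h array, and the lowest 12 h array lay 0.25 above the highest 4 h array. The lowest 4 h array lay 0.39 above the highest t12_25 array. In contrast, arrays of 72 h and 12 h overlapped, as did those of t12_25 and 0 h. This order and these overlaps held under all 8 background and scaling procedures that were run, among them the processed values of the authors.

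Cells left at 25 °C were compared with those taken at 0 h, a difference that the choice of the probe had not used. A_09_P150000 averaged 7.59 ± 0.14 (SD, n = 3) at t12_25 and 7.31 ± 0.33 (SD, n = 3) at 0 h. The log2 difference of 0.29 (SE 0.22, 95% interval -0.17 to 0.74) did not pass in limma, with an adjusted p of 1. Over all tested probes 0 were called between these groups (0%), and 385 (2.48%) had an unadjusted p under 0.05 in limma. The interval leaves room for a modest difference between the warm groups, which was 0.54 with 75th percentile scaling of the processed signals. Against t12_25 alone, the log2 change after 4 h at 14 °C was 0.98, as a description. Whether time in culture contributed to the changes after 4 h and 12 h was not tested. No array at 25 °C was taken later than 12 h. At 24 h and 72 h, time in culture and temperature therefore cannot be told apart.

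Slide and scan date were examined as batches, because the groups were spread unevenly over them. On slide 1, A_09_P150000 read 9.85 at 72 h against 7.33 at 0 h and 7.45 at t12_25, a difference of 2.46 from the mean of the warm arrays of that slide. On slide 6 it read 9.61 at 72 h against 6.96 at 0 h, and on slide 5 it read 9.87 at 72 h against 7.58 at t12_25. All 3 slides that held both 72 h and warm arrays thus showed a difference within 2.29 to 2.66. For 12 h, the difference from the warm arrays was 1.78 on slide 1 and 2.31 on slide 3.

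No slide held a warm array together with a 4 h or 24 h array, so the distance of these groups from the baseline cannot be checked within a slide. They could be set against each other. On slide 4 the probe read 10.36 and 10.37 at 24 h against 8.93 and 8.72 at 4 h. On slide 7 it read 10.20 and 9.97 at 24 h against 8.86 and 8.12 at 4 h. Slide 2 held all 4 cold time points, with 8.22 after 4 h, 9.61 after 12 h, 10.04 after 24 h and 9.73 after 72 h, the same order as the group means. Within scan 1 the changes from baseline were 1.18, 2.51, 2.75 and 2.27 at 4, 12, 24 and 72 h, and within scan 2 they were 0.82, 2.0, 2.65 and 2.40. Several of these rest on a single cold array.

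The arrays marked for evaluation made up 3 of the 4 arrays at 72 h, 2 of the 3 at 12 h and 1 of the 5 at 4 h. Without them the log2 change was 1.21 after 4 h, 2.54 after 12 h, 2.74 after 24 h and 2.43 after 72 h, where 12 h and 72 h were then represented by 1 array each. When the processed signals of the scanner software, which carry their own background correction, were scaled by their 75th percentile, the changes became 1.66, 2.83, 3.46 and 3.00 at 4, 12, 24 and 72 h. Median scaling alone gave 1.06, 1.93, 2.58 and 2.08. Without capping of local backgrounds they became 0.89, 1.81, 2.37 and 1.97. The direction was the same throughout.

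A_09_P043441 addresses the same gene and was not chosen for its values. Its log2 intensities were 16.43, 16.71 and 16.79 at 0 h and 16.63, 17.03 and 16.41 at t12_25. They were 16.64, 16.75, 16.63, 16.77 and 16.78 at 4 h and 16.67, 16.81 and 16.63 at 12 h. They were 16.62, 16.82, 16.77, 16.74 and 16.75 at 24 h and 17.02, 16.68, 16.75 and 16.96 at 72 h. Arrays of all groups overlapped, and the highest single array belonged to t12_25. The log2 change at 72 h was 0.19 (SE 0.10, 95% interval -0.02 to 0.40, adjusted p 0.164 in limma).

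Changes of A_09_P043441 were 0.05 after 4 h (adjusted p 0.892 in limma), 0.04 after 12 h (adjusted p 0.825) and 0.07 after 24 h (adjusted p 0.637). The direct difference of 72 h minus 4 h was 0.14 (adjusted p 0.395 in limma). No change of this probe was therefore detectable with these arrays, and the intervals end at log2 changes of 0.24, 0.27, 0.27 and 0.40 at 4, 12, 24 and 72 h. At 72 h the call depended on the processing, since the probe passed with the processed values of the authors (0.22, adjusted p 0.0408) and with the processed signals scaled by the 75th percentile (0.40, adjusted p 0.0421), in both cases far short of a fold change of 2. It also passed when t12_25 replicate 2 was left out (0.26).

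The gap between the log2 changes of the RpLP1 probes, A_09_P150000 minus A_09_P043441, grew to 1.07 after 4 h, 2.11 after 12 h and 2.67 after 24 h, and was 2.13 after 72 h. Over the 23 arrays their normalized values had a Pearson r of 0.243 and a Spearman rho of 0.142, as a description over arrays that share slides. To place this gap, 578 named genes with at least 2 tested probes were examined. The median gap between the most divergent probes of a gene was 0.18 at 72 h, and 11 genes had a gap of 1 or more. RpLP1 held rank 1 at 24 h and rank 2 at 72 h. As A_09_P150000 had been chosen for its change, these ranks are a description.

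Kah, which encodes a zinc-finger protein, was the gene with a larger gap at 72 h, of 2.53. Its probes had log2 changes of 3.28 and 0.76 and are assigned to the same transcript, whereas those of RpLP1 are assigned to different ones. Among 37 cytoplasmic ribosome genes with at least 2 tested probes the median gap was 0.23, and RpLP1 was the only one with a gap of 1 or more. RpS23, a protein of the decoding centre in the small subunit, followed with 0.95.

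Of the partners of RpLP1 in the stalk, RpLP2 and RpL12 could be paired with probes and RpLP0 could not. The RpLP2 probe (A_09_P044456) read 17.22, 17.18, 17.13 and 16.96 at 72 h, against 17.07, 17.12 and 17.02 at 0 h and 16.96, 16.97 and 17.05 at t12_25. The groups overlapped. The log2 change at 72 h was 0.09 (SE 0.06, 95% interval -0.04 to 0.22, adjusted p 0.288 in limma), and at 4, 12 and 24 h it was -0.02, -0.06 and -0.02. The protein that pairs with RpLP1 in the stalk dimer was thus represented by a transcript signal for which no change was detectable.

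RpL12, which forms the base of the stalk, had 2 probes. A_09_P189250 read 17.30, 17.86, 17.77 and 17.79 at 72 h, against 18.02, 17.58 and 17.88 at 0 h and 17.77, 17.48 and 18.12 at t12_25. Its log2 change at 72 h was -0.13 (SE 0.12, 95% interval -0.38 to 0.12, adjusted p 0.456 in limma), with 72 h replicate 1 well below the other arrays of its group. Without that array the change was -0.0025. At 4, 12 and 24 h the changes were -0.07, 0.01 and 0.02.

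The other RpL12 probe, A_09_P027331, followed the slide more than the group. It read from 12.98 to 14.13 on slides 5, 6 and 7 and from 11.31 to 12.30 on slides 1, 2, 3 and 4, whichever group the array belonged to. Its log2 change at 72 h of 0.36 had an SE of 0.58 and an interval of -0.84 to 1.57 (adjusted p 0.681 in limma), so that no statement on this probe can be drawn from the unadjusted values. With slide as a block it did not pass (0.15, adjusted p 0.266), nor with slide as a random block (0.22, adjusted p 0.558). In the processed values of the authors, which had been adjusted by surrogate variable analysis, it passed (0.36, adjusted p 0.0312). Its SD at 72 h was 1.35 in the main values and 0.28 in those of the authors. The fit took no account of the variables already removed, so p-values from these processed values can be too small. Single arrays decided its value, which was -0.045 without 72 h replicate 4 and 0.82 without 72 h replicate 3. Without the arrays marked for evaluation it was 1.59 (adjusted p 0.262).

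Between 72 h and 4 h, RpLP2 differed by 0.11 (adjusted p 0.263), A_09_P189250 by -0.06 (adjusted p 0.815) and A_09_P027331 by 0.40 (adjusted p 0.720), in limma, where 23% of all tested probes passed without the fold limit. Under alternative processing RpLP2 passed with array weights (0.17, adjusted p 0.0378) and with the processed values of the authors (0.18, adjusted p 0.0435). A_09_P027331 passed with the processed values of the authors (0.40, adjusted p 0.0295), but its difference ran from -0.125 with array weights to 1.42 without the arrays marked for evaluation, and neither of these passed.

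To see how the rest of the ribosome behaved, the list of cytoplasmic ribosome probes curated by the study was used. It held 134 probes of 78 genes, and all 134 were tested. At 72 h, 0 of the other 133 probes were called higher and 0 lower at an adjusted p under 0.05 in limma and a fold change of at least 2, where 2.41% of all tested probes were called higher and 2.01% lower. The counts were also 0 and 0 at 4 h (0.651% and 0.129% of all probes), at 12 h (1.89% and 0.826%) and at 24 h (1.84% and 1.58%).

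Without the fold limit, 4 of the 133 probes passed as higher and 10 as lower at 72 h in limma, against 16.3% and 18.7% of all tested probes. These counts were 2 and 3 after 24 h (15.9% and 16.5% of all probes), 1 and 2 after 12 h (13.8% and 10.8%) and 0 and 0 after 4 h (6.47% and 5.88%). The 10 lower probes at 72 h came from RpL5, RpS3A, RpL37a and RpS23 only, several of them from RpL5. The 4 higher probes came from different genes. Probes of 1 gene are not independent, so these counts do not compare numbers of genes. Some of the 133 probes varied strongly between arrays, which left little room for a small change to pass. At 72 h the SE was 0.58 for RpL12 A_09_P027331 and 0.06 for RpLP2. Counts without the fold limit under slide as a block are not given here. The median log2 change of the 133 probes was -0.0086, -0.0034, 0.03 and 0.064 at 4, 12, 24 and 72 h, beside medians over all probes of -0.0064, 0.019, 0.0029 and 0.00078. At 72 h the 133 changes ranged from -0.90 to 0.90. A_09_P150000 lay above this range at each time, with 0.29, 0.44, 0.63 and 0.90 as the highest other values.

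Of the 5 ribosome probes highest after A_09_P150000 at 72 h, 1 passed the adjusted p threshold, without the fold limit. RpL7-like rose by 0.60 (SE 0.10, adjusted p 6.02e-05 in limma), with all 4 arrays at 72 h above all baseline arrays. Under median scaling it did not pass (0.18, adjusted p 0.495). Log2 changes of 0.90 for RpL6 (SE 0.35) and 0.61 for RpL26 (SE 0.25), both of the large subunit, had adjusted p-values of 0.0523 and 0.0636 in limma. With slide as a block RpL6 passed (0.73, adjusted p 2.23e-05). For RpS13 (0.55, SE 0.44), of the small subunit, the spread between arrays was larger than the change, with a 72 h SD of 0.84 over 4 arrays.

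The 5 lowest ribosome probes at 72 h all passed in the same way, with 3 or 4 of the 4 arrays at 72 h below all baseline arrays. As the highest and lowest probes were picked by their 72 h change, this separation of arrays is a description. Its share over all probes is not given here. An RpS23 probe (A_09_P147930) averaged 8.10 ± 0.15 (SD, n = 4) at 72 h and 9.00 ± 0.29 (SD, n = 6) at baseline, and was thus lower by a log2 change of -0.90, with an adjusted p of 8.46e-06 in limma. The other RpS23 probe, far brighter with a 72 h mean of 17.08, had a log2 change of 0.05. Probes for RpL5 (A_09_P221230, -0.70) and RpS3A (A_09_P176740, -0.57) and both RpL37a probes (-0.67 and -0.54) followed. Apart from the RpS3A probe these were dim, with 72 h means of 8.01 for RpL5 and 6.81 and 7.85 for RpL37a, beside a filter of 6.6. The other RpS3A probe, which was bright, had a log2 change of -0.47 and also passed (adjusted p 0.00469 in limma). RpL5 binds the 5S ribosomal RNA, and the other RpL5 probes had log2 changes of -0.44 to -0.07. Those at -0.44, -0.33, -0.32 and -0.19 passed the adjusted p threshold in limma, and those at -0.39, -0.17 and -0.07 did not. Without the arrays marked for evaluation, RpL7-like (0.38, adjusted p 0.0865 in limma), RpS3A (-0.52, adjusted p 0.136) and RpL37a A_09_P038871 (-0.51, adjusted p 0.140) no longer passed, with 1 array left at 72 h, and RpS3A also missed the threshold with the processed signals scaled by the 75th percentile (-0.44, adjusted p 0.0568).

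Probes with a pattern like that of A_09_P150000 were sought by Pearson r of log2 values over the 23 arrays. The search covered 15148 tested probes well above background on every array of at least 1 group, 2528 of them with a gene name. Probes bright only in the cold groups could therefore enter it. These correlations are descriptions, over arrays that share slides and groups. Of all these probes, 118 had an r above 0.9 and 84 an r below -0.9. None of the other 133 ribosome probes was among these 118 of 15148. With so small a share over all probes, this absence is not read as a result about the ribosome list. The median r over all probes is not given here. Over the other 133 ribosome probes r ran from -0.763 to 0.849 with a median of 0.091. RpL17 (A_09_P149115) was the likest of them, and it rose by 0.53 at 72 h (SE 0.09, adjusted p 1.22e-04 in limma).

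Among named probes, Atg10 was the likest (r 0.974, Spearman rho 0.962), an enzyme of the conjugation system that autophagy uses. Its log2 changes were 0.60, 1.05, 1.17 and 1.01 at 4, 12, 24 and 72 h, smaller than those of A_09_P150000 but with the same highest point. CG2691 (r 0.953) and Ykt6 (r 0.949), a SNARE of membrane fusion, followed with their highest changes at 24 h as well, 0.74 for CG2691 and 0.70 for Ykt6. CG33642 (r 0.937) had log2 changes of 1.08, 1.85, 1.98 and 1.52 at the 4 times, the closest in size to A_09_P150000 among these 8 likest probes at 4, 12 and 24 h. The remaining 4 were nompB (r 0.939), a component of intraflagellar transport, CalpA (r 0.934), a calpain protease, CG33332 (r 0.932) and Galphaq (r 0.930), a G protein alpha subunit.

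This Galphaq probe had a log2 change of 0.79 at 72 h, against -0.13 for the other probe of the gene. After removal of slide means, r of the 8 probes lay between 0.928 and 0.969. The ranking itself was less firm than the values, since 5 of the 8 remained among the 8 highest by Spearman rho, 3 by r over the 6 group means and 2 by r after removal of slide means.

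In the opposite direction stood Uba3 (r -0.960), a subunit of the enzyme that activates NEDD8, Sry-delta (r -0.950), a zinc-finger transcription factor, and coilin (r -0.946), the scaffold of Cajal bodies. Their log2 changes at 72 h were -0.65, -1.20 and -1.02. At 4 h they were -0.23, -0.44 and -0.24. The pattern of A_09_P150000, with the highest value at 24 h, was mirrored by Uba3 (-0.69 at 24 h), whereas Sry-delta was lowest at 72 h.

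Elongation, termination and recycling factors, which work with the stalk, could not be described, as 0 of the 13 genes listed for this purpose were paired with a probe in the sources used here.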

How the data were processed

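Per the file headers, the authors scanned single-colour Agilent arrays and quantified them with Feature Extraction 10.7.3.1. The deposited intensities per spot were not normalized between arrays. The authors also deposited processed log2 values for 32161 probes (normexp, quantile normalization and surrogate variable analysis, in the methods of the study), used only as an alternative. Fits to them took no account of the surrogate variables already removed, so their p-values can be too small. Each array held 45019 spots, 43602 of them gene spots for 32162 probes.

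Spot median intensities were corrected with normexp (offset 50). For 23 gene spots on 7 arrays whose local background exceeded 3 times the median of their array, that median was used, since normexp otherwise broke down on some arrays. Values were quantile-normalized, transformed to log2, freed of outlier-flagged spots and reduced to the median per probe (limma 3.58.1, R 4.3.3). The 15503 probes with a log2 intensity above 6.6 on at least 3 arrays, the filter of the study, were tested with lmFit and eBayes over all 23 arrays. p-values are two-sided and Benjamini-Hochberg adjusted over these probes. Called probes had a fold change of at least 2 at an adjusted p under 0.05. The scripts were tested on simulated data.

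Groups and replicate numbers came from the sample titles. The methods of the study describe the replicates as biological replicates, from aliquots of this cell line, and p-values measure the spread between their arrays, whose small number limits precision. The main fit held no term for slide, although arrays that share a slide were not independent. With slide as a random block their estimated correlation was 0.60. Gene names came from the probe tables of the study, updated with RefSeq symbols (4044 probes named). Named genes were both RpLP1 probes, probes of RpLP0, RpLP2 and RpL12, the 5 highest and 5 lowest probes of the ribosome list at 72 h, genes with a probe gap at least that of RpLP1, and the 8 likest and 3 least like named probes. Of these probes, 1 is not reported here. RpL17, the other probes of named genes and the Galphaq pair were added after their values were seen. The probe, the lists and these rules were chosen with earlier results of these data known. Alternatives were other background corrections and scalings, slide, scan date or replicate number as a block, each warm group alone as baseline, array weights, a filter on dim probes and leaving out arrays. Differences within slides and scan dates, and the fit without the 6 arrays marked for evaluation, were chosen after seeing the data.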

Additional observations from a re-analysis of the deposited data

Results flagged for a closer look

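In 1 of 15 groups of values examined for the 5 probes of RpLP1, RpLP2 and RpL12, 1 array stood far from the others of its group. For RpL12 (A_09_P189250), 72 h replicate 1 read 17.30, against 17.77 to 17.86 on the other 72 h arrays. Its gap to the nearest array, as a share of the range of the group, was 0.846, above the critical value for 4 samples. Chance marks about 1 in 20 such groups. This array was also among the 6 marked for evaluation, and whether that accounts for the value was not tested. On the same array A_09_P150000 read 9.61, within 0.26 of the other 72 h arrays.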

How the results depend on the processing

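The log2 change of A_09_P150000 kept its direction in all 16 alternatives at each time, with ranges of 0.89 to 1.66 at 4 h, 1.81 to 2.83 at 12 h, 2.37 to 3.46 at 24 h and 1.97 to 3.00 at 72 h. Values that moved by more than the spread between arrays were those with 75th percentile scaling of the processed signals, which also replaces the background correction (1.66, 2.83, 3.46 and 3.00 at 4, 12, 24 and 72 h), without capping of local backgrounds (2.37 at 24 h and 1.97 at 72 h), with median scaling (2.08 at 72 h) and without the arrays marked for evaluation (2.54 at 12 h). Median scaling shifted the median of all probes to -0.15, -0.21, -0.18 and -0.24 at the 4 times, and 75th percentile scaling to 0.02, 0.11, 0.06 and 0.09. Relative to that median, A_09_P150000 was at 2.32 at 72 h under median scaling and at 2.91 under 75th percentile scaling. Leaving out single arrays gave 1.02 to 1.23 at 4 h, 1.95 to 2.35 at 12 h, 2.64 to 2.80 at 24 h and 2.22 to 2.38 at 72 h. The cause of these shifts was not tested.

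Of results with a test, 75th percentile scaling brought A_09_P043441 past the threshold at 72 h (0.40). The processed values of the authors did so for A_09_P043441 (0.22) and RpL12 A_09_P027331 (0.36) at 72 h, and for RpLP2 (0.18) and A_09_P027331 (0.40) in 72 h minus 4 h, and array weights for RpLP2 in 72 h minus 4 h (0.17). Without single arrays A_09_P043441 ran from 0.13 to 0.26 at 72 h and passed without t12_25 replicate 2. The other tested results on RpLP1, RpLP2 and RpL12 probes kept their side of the threshold in every alternative, although values near 0 changed sign in some. Of the other ribosome probes, 1 in place of 0 was called higher with slide as a block (24 h) or scan date as a block (72 h), and 1 lower at 72 h with 75th percentile scaling, median scaling, t12_25 alone as the baseline or without the arrays marked for evaluation. Leaving out single arrays gave 0 to 1 higher at 72 h.

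The number of all probes called moved with both scaling and background correction. With 75th percentile scaling 487, 1093, 866 and 1400 were higher and 109, 339, 545 and 617 lower at 4, 12, 24 and 72 h, and with median scaling 127, 156 and 201 were higher at 12, 24 and 72 h and 56, 468, 602 and 968 lower at the 4 times. Without capping 59, 193 and 189 were higher at 4, 12 and 24 h, and 10 and 78 lower at 4 and 12 h. Without background subtraction 12 were lower at 4 h, and without the arrays marked for evaluation 496 lower at 72 h. Of the 8 named probes most like A_09_P150000, 5 were kept by Spearman rho, 3 by group means and 2 after removal of slide means.

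Replicate numbers are shared between groups in the titles. Deviations of same-numbered arrays from their group means correlated with a median of 0.574 over 49 pairs, but only 33 pairs exceeded 0.1, so the numbers were not taken to pair the arrays. With the replicate block the log2 change of A_09_P150000 at 72 h was 2.40, and no result on the RpLP1, RpLP2 or RpL12 probes crossed the threshold. RpL6 (0.74) and RpL26 (0.66) passed at 72 h with this block, as they did with slide as a random block, array weights and the processed values of the authors. The number of arrays limits the precision.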
